A study of Homo sapiens with 12 samples.

Results

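The mRNAs of 8 enzymes of glycolysis and lactate formation were followed through a Staufen1 (STAU1) pull-down and through cytoplasmic and polysomal RNA of HEK293T cells, a human embryonic kidney line. They were ALDOA, TPI1, GAPDH, PGAM1, ENO1, PKM, LDHA and LDHB. Each gene was found by the position of its 3′ end in hg19, and all poly(A) sites on its strand within 1000 nt of that position were summed. This took 53 of the 640413 sites in the pull-down table and 89 of the 189010 sites in the fraction table. Of these, 24 and 14 sites had at least 10 reads in a library. All 8 genes were found in both tables, and PGAM1, with under 50 reads in 7 of the 8 pull-down libraries, is kept but marked as low throughout. Gene names rest on these positions alone, and the exon or UTR around each site was not looked up, as the gene tables used here are of another build. Several of these genes have near-identical processed copies elsewhere in the genome, and the sources used here do not say how reads matching such copies were counted, so their absolute levels are uncertain.

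Glycolysis splits glucose into pyruvate in the cytosol, with a net gain of ATP and NADH. Aldolase cleaves the hexose bisphosphate, triose phosphate isomerase interconverts the resulting trioses, glyceraldehyde phosphate dehydrogenase makes NADH, and phosphoglycerate mutase, enolase and pyruvate kinase carry the carbon on to pyruvate and ATP. Lactate dehydrogenase then reduces pyruvate to lactate and returns NAD+, which keeps the pathway running in fast-growing cultured cells. STAU1 is a double-stranded-RNA-binding protein best known for binding structured 3′ UTRs. It has been linked to mRNA decay, localisation and translation.

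The pull-down cells were all of one STAU1-knockout line (C8), made with a Cas9 nickase, and transiently expressed either STAU1-FLAG or, as an unrelated tagged protein, FLAG-GFP. RNA of the anti-FLAG pull-down (IP) and of the total lysate (input) was sequenced from each, with 2 replicates in each of the 4 groups. STAU1 was therefore present only as the transfected, tagged protein in the STAU1 groups, and the GFP groups had the knockout without it. Cytoplasmic and polysomal RNA came from STAU1-knockout and wild-type cells (the labels name an isogenic control line, C9), with 1 library for each of the 4 combinations. The libraries were made by 3'READS+, which places each read at the 3′ end of a polyadenylated RNA, so that a long transcript does not gather more reads than a short one.

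The pull-down libraries held 1245270 to 9655646 reads, the GFP pull-downs being the shallowest at 1245270 and 1291888. The fraction libraries held 2799226 to 3483937 reads. Mitochondrial reads made up 5.14% ± 0.102 (SD, n = 2) of the STAU1 pull-down and 10.5% ± 0.781 of its input, and 5.57% ± 0.153 of the GFP pull-down and 10.4% ± 0.354 of its input. They made up 18.3% and 13.9% of the wild-type and knockout cytoplasm and 5.25% and 4.41% of the polysomes. STAU1 input replicate 1, with 5567893 reads, had reads at 99156 sites, against 175098 sites in replicate 2, with 9655646 reads. The GFP inputs, with 7636541 and 8932299 reads, had reads at 151066 and 182819 sites. The transcript of STAU1 itself was not analysed here.

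Nearly all reads of 6 of the genes ended at a single position. The leading site held at least 99.1% of the reads in every library for ALDOA (chromosome 16, plus strand, 30081734), GAPDH (chromosome 12, plus strand, 6647536), ENO1 (chromosome 1, minus strand, 8921063), PKM (chromosome 15, minus strand, 72491373) and LDHB (chromosome 12, minus strand, 21788276). For TPI1 (chromosome 12, plus strand) the site at 6979992 held at least 97.03%, with a smaller site 83 nt downstream at 6980075. PGAM1 (chromosome 10, plus strand) ended at 99192870 in 50 to 100% of its few pull-down reads and in 92.7 to 97.7% of its fraction reads. LDHA (chromosome 11, plus strand) was the exception, with its reads divided mainly between 18429393 and a site 456 nt upstream at 18428937. For 8 of 8 genes the leading site was the same position in both tables.

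The genes differed widely in level, given here as CPM scaled by TMM, that is, read counts brought to a common library size. In the inputs ALDOA was the highest of the 8 in 4 of 4 libraries, with 7808 and 9096 CPM in the STAU1 inputs and 6220 and 9604 CPM in the GFP inputs. Its sum ranked 11th by mean CPM among the 474197 rows of the pull-down table. ENO1 came second in 4 of 4 inputs, at 3697 to 4856 CPM. GAPDH and TPI1 followed and changed places between libraries, with GAPDH above TPI1 in 3 of the 4 inputs, and LDHB came next in each. PKM and LDHA also changed places, at 146.9 to 172.5 and 107.6 to 168.2 CPM, and PGAM1 was last at 3.134 to 9.649 CPM. The neighbours in these last pairs thus did not differ beyond the spread between libraries. In 4 of 4 pull-down libraries TPI1 stood above GAPDH, while the other places were as in the inputs.

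**Figure D1:**
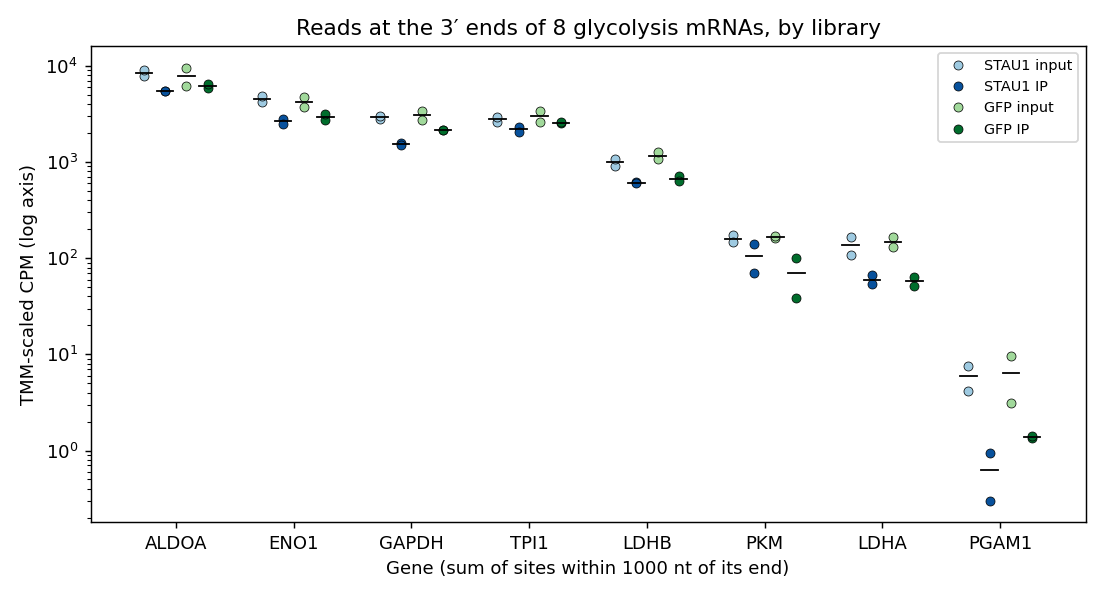
TMM-scaled CPM (log axis) of the 8 genes in the 8 pull-down libraries; each point is a library and each short line the mean of 2 replicates. Both STAU1 pull-downs lie below both inputs for 8 of the 8 genes, as for 21.9% of all rows and 40.6% of abundant rows, and both GFP pull-downs for 7 of the 8, as for 30.5 and 51.7%.

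All 8 mRNAs had fewer CPM in both STAU1 pull-downs than in both STAU1 inputs, as did 21.9% of all rows, and 5 of them fell past the threshold of the test. These were ALDOA, GAPDH, ENO1, LDHA and LDHB, with fitted levels at 43.5 to 64.9% of the input. None rose. By the edgeR quasi-likelihood test with Benjamini-Hochberg adjustment, at an adjusted p under 0.05, 4.27% of all 24972 rows tested were called lower. The median log2 ratio of the 8 genes was -0.73, and that of all rows 0.123. Among the 2288 rows with an average log2 CPM of at least 6, which hold every one of these genes but PGAM1, 22.5% were called lower, against 5 of the 7 genes. In those rows the median was -0.07, the 7 genes stood at percentiles 9.09 to 34.92, and 40.6% had both pull-downs below both inputs. The bound on abundance was chosen after the values had been seen.

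ALDOA, the aldolase that yields the triose phosphates, had 5466 and 5510 CPM in the STAU1 pull-downs and 7808 and 9096 CPM in the inputs. The log2 ratio was -0.62 ± 0.17 (SE, n = 2 and 2 libraries), with an edgeR adjusted p of 0.028. The call was lost when libraries were scaled by their totals (-0.39, adjusted p = 0.104). TPI1, the next enzyme, had 2314 and 2055 CPM in the pull-downs and 2604 and 2969 CPM in the inputs. The replicates did not overlap, but the log2 ratio of -0.35 ± 0.16 did not pass (edgeR adjusted p = 0.194).

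GAPDH, the enzyme of the oxidation step, had 1596 and 1498 CPM in the STAU1 pull-downs and 2832 and 3015 CPM in the inputs. It fell with the smallest adjusted p of the 8, at a log2 ratio of -0.92 ± 0.15 (edgeR adjusted p = 0.000585). PGAM1, the mutase that follows, was represented by 2 and 6 reads in the pull-downs and by 41 and 36 reads in the inputs. From the summed reads the pull-down level was 11.2% of the input, with an exact 95% counting interval of 4.68 to 23.2%. The fitted log2 ratio of -3.20 ± 1.03 did not pass (edgeR adjusted p = 0.0645). It passed under 5 of 17 alternative settings, among them DESeq2 (adjusted p = 0.0483) and the fit without STAU1 input replicate 2 (adjusted p = 0.0134). It moved to -1.08 (adjusted p = 0.369) when the window was widened to 2000 nt, which adds a site at 99191661.

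ENO1, the enolase of most tissues, had 2836 and 2502 CPM in the STAU1 pull-downs and 4166 and 4856 CPM in the inputs, a log2 ratio of -0.76 ± 0.16 (edgeR adjusted p = 0.00482). PKM, which encodes a pyruvate kinase, had 70.1 and 139 CPM in the pull-downs and 172.5 and 146.9 CPM in the inputs. Pull-down replicate 2 lay closer to the inputs than to replicate 1, and the log2 ratio of -0.61 ± 0.32 did not pass (edgeR adjusted p = 0.271). Without STAU1 pull-down replicate 2 it was -1.20 (adjusted p = 0.00238), and without replicate 1 it was -0.19 (adjusted p = 0.825).

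Both lactate dehydrogenase mRNAs fell. LDHA encodes the subunit that is common in muscle and in fast-growing cells, and had 53.5 and 66.6 CPM in the STAU1 pull-downs and 107.6 and 168.2 CPM in the inputs. Its log2 ratio of -1.20 ± 0.24 was the most negative of the genes called (edgeR adjusted p = 0.0036). LDHB encodes the subunit common in heart, and had 619.1 and 606.4 CPM in the pull-downs and 910.3 and 1085 CPM in the inputs. Its log2 ratio was -0.70 ± 0.16 (edgeR adjusted p = 0.00994), and the call was lost without STAU1 input replicate 2 (-0.59, adjusted p = 0.0582).

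The GFP pull-down measures what anti-FLAG beads recover without STAU1. Here, too, the fitted ratio of each of the 8 genes was below 0, and 4 fell past the threshold: PKM, LDHA, LDHB and GAPDH. Both pull-downs lay below both inputs for 7 of the 8 genes, for 30.5% of all rows and for 51.7% of the abundant rows. By the same edgeR test 5.4% of all 24972 rows were called lower, and 30.7% of the 2288 abundant rows, against 4 of the 7 genes among them. The median log2 ratio was -0.66 for the 8 genes and -0.12 for all rows. Among the abundant rows the median was -0.30, and that of the 7 genes was -0.52. These 7 stood at percentiles 9.57 (LDHA) to 52.8 (TPI1) of the abundant rows, with ALDOA at 46.2. Of the 4 calls with GFP 3, for GAPDH, LDHA and LDHB, were also made in the STAU1 pull-down, 60% of the genes called there and 75% of those called with GFP. Over all rows these shares were 56.4 and 44.6%, and over the abundant rows 75.7 and 55.6%, so that nothing is read from the overlap.

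LDHA had 51.2 and 63.6 CPM in the GFP pull-downs and 129.3 and 166.8 CPM in the GFP inputs, a log2 ratio of -1.37 ± 0.26 (edgeR adjusted p = 0.00178). LDHA was the only gene of the 8 called lower in both pull-downs under all 17 alternative settings. PKM had 38.3 and 100.7 CPM in the pull-downs and 162 and 170.4 CPM in the inputs, a log2 ratio of -1.26 ± 0.34 (edgeR adjusted p = 0.0238). The PKM pull-downs were again far apart: without GFP pull-down replicate 1 the ratio was -0.73 (adjusted p = 0.221), and without replicate 2 it was -2.16 (adjusted p = 2.92e-08). The PKM call was also lost with DESeq2 (-1.09, adjusted p = 0.216), RLE size factors (-1.10, adjusted p = 0.0507) and library totals (-0.91, adjusted p = 0.138). LDHB had 711.9 and 633.1 CPM in the pull-downs and 1075 and 1259 CPM in the inputs, a log2 ratio of -0.80 ± 0.17 (edgeR adjusted p = 0.00375).

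GAPDH, with 2175 and 2171 CPM in the GFP pull-downs and 3419 and 2741 CPM in the inputs, was barely past the threshold at -0.50 ± 0.15 (edgeR adjusted p = 0.0452). The GAPDH call was lost without GFP pull-down replicate 1 (-0.51, adjusted p = 0.202) or 2 (-0.55, adjusted p = 0.115) at a ratio no smaller, and without GFP input replicate 1 at -0.42 (adjusted p = 0.202). It was also lost with smaller ratios under DESeq2 (-0.34, adjusted p = 0.0583), RLE (-0.34, adjusted p = 0.179) and library totals (-0.15, adjusted p = 0.603). ENO1 was barely short of it, with 2731 and 3157 CPM in the pull-downs, 3697 and 4757 CPM in the inputs and a log2 ratio of -0.52 ± 0.16 (edgeR adjusted p = 0.0503). ENO1 was called under 11 of 17 alternative settings, DESeq2 among them, which called ENO1, LDHA and LDHB lower with GFP. With library totals its ratio was -0.16 (adjusted p = 0.56).

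ALDOA had 5854 and 6420 CPM in the GFP pull-downs and 6220 and 9604 CPM in the inputs, and was the only gene whose replicates overlapped. Its log2 ratio was -0.37 ± 0.17 (edgeR adjusted p = 0.249), and rested on the GFP inputs: it was -0.73 (adjusted p = 6.76e-05) without input replicate 1 and -0.08 (adjusted p = 0.967) without replicate 2. With library totals it was 0.00 (-0.004 before rounding, adjusted p = 0.999). TPI1 had 2527 and 2580 CPM in the pull-downs and 2617 and 3400 CPM in the inputs (-0.24 ± 0.16, edgeR adjusted p = 0.457), and with scaling by library totals its ratio turned to 0.12. PGAM1 had 2 reads in each GFP pull-down and 67 and 24 in the inputs. From these sums its level was 22.4% of the input, with an exact 95% counting interval of 5.98 to 59.4%, and the fitted ratio did not pass (edgeR adjusted p = 0.298).

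The scaling moved the whole distribution of ratios. With library totals in place of TMM the median of all rows went from 0.123 to 0.355 for STAU1 and from -0.116 to 0.215 for GFP, and 4 and 1 of the 8 genes were called lower. The rows called higher and lower went from 1005 and 1066 to 1583 and 673 for STAU1 and from 684 and 1348 to 1263 and 677 for GFP. With RLE size factors the GFP rows were 935 and 1028, and LDHA and LDHB were the 2 genes still called lower with GFP. With library totals the gene medians were -0.50 and -0.30, below the median of all rows in both. The share of mitochondrial reads was lower in both pull-downs than in their inputs, and its part in these ratios was not tested.

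**Figure D2:**
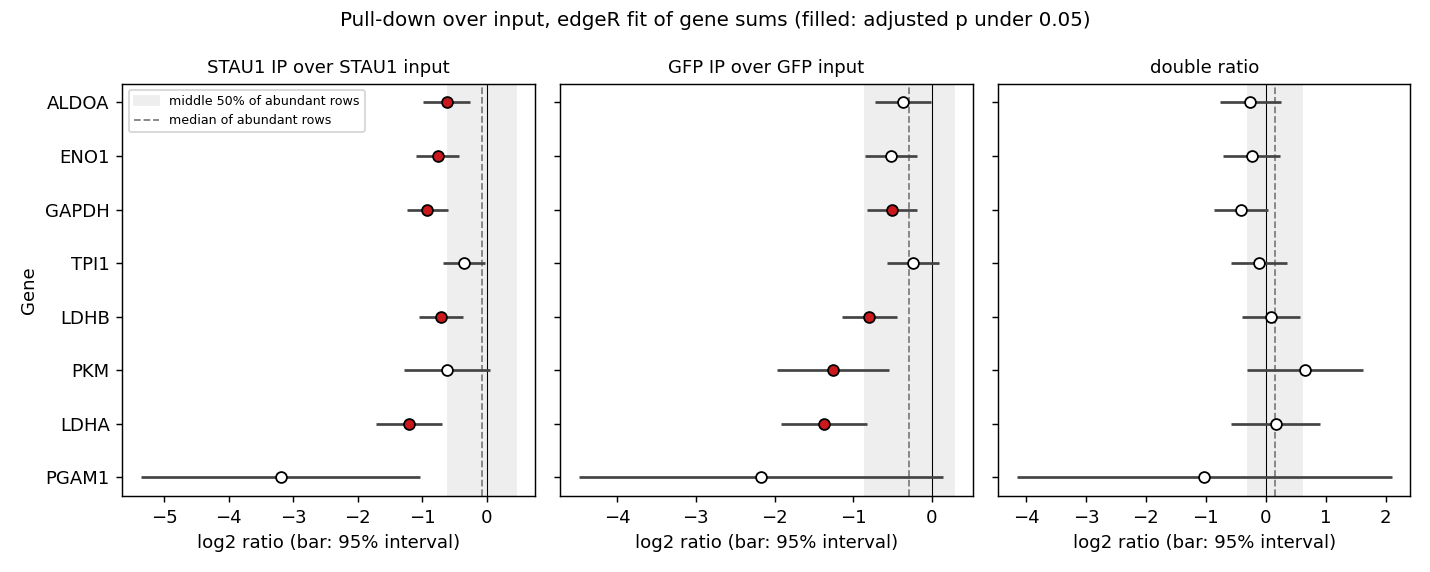
Fitted log2 ratios of the 8 genes in the STAU1 pull-down, the GFP pull-down and the double ratio, with 95% intervals; filled points passed an adjusted p under 0.05, and the grey band and dashed line give the middle 50% and the median of 2288 abundant rows. In the first panel 5 points are filled, in the second 4, and in the third none.

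The double ratio, STAU1 pull-down over its input divided by GFP pull-down over its input, asks what STAU1 added. None of the 8 genes passed the threshold. The edgeR test called 0 of 8 in either direction, with 0 at an unadjusted p under 0.05 and 0 by DESeq2, while 1.29% of all rows were called. By DESeq2 GAPDH was barely short of the threshold (-0.525, adjusted p = 0.0516), and PGAM1 was given no adjusted p. The edgeR log2 values ran from -1.02 for PGAM1, with few reads and a 95% interval of -4.15 to 2.10, to 0.65 for PKM (-0.32 to 1.62). Their median was -0.17 against 0.263 for all rows, and 7 of the 8 lay below the latter. Among the 2288 abundant rows 151 were called higher and 38 lower, and the median was 0.163. The 7 genes other than PGAM1 stood at percentiles 18.84 to 76.92 of these rows, with LDHA at 50.35 and PKM highest. GAPDH had -0.41, with a 95% interval of -0.86 to 0.03. The intervals were -0.76 to 0.25 for ALDOA, -0.71 to 0.24 for ENO1 and -0.58 to 0.35 for TPI1. For LDHB the interval was -0.40 to 0.58 and for LDHA -0.58 to 0.91. PKM was called higher (1.54, adjusted p = 0.0125) without GFP pull-down replicate 2, and was at 0.07 at the lowest of the other omissions.

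Between the inputs, which compare cells given STAU1-FLAG with cells given FLAG-GFP, the edgeR test called 0 of 8 genes, with 0 at an unadjusted p under 0.05 and 0 by DESeq2. Of all rows, 0.00801% were called. The log2 ratios of the 8 genes ran from -0.22 (LDHB) to 0.10 (ALDOA). The inputs were not alike in every fit: without STAU1 input replicate 2 the median of all rows went from -0.059 to -0.365. The median of the 8 genes went from -0.088 to -0.117. The 95% interval of GAPDH was -0.39 to 0.24 and that of ENO1 -0.24 to 0.43.

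The sites were also tested singly. Of the 24 listed sites 16 passed the filter on low counts. Lower in the STAU1 pull-down were 4: the leading sites of ENO1 (-0.67), GAPDH (-0.83) and LDHB (-0.62) and the downstream site of LDHA, against 2.99% of the 33744 sites tested (edgeR). The leading ALDOA site missed the threshold at -0.53 (edgeR adjusted p = 0.0836). Lower in the GFP pull-down were 3, the leading sites of PKM (-1.21) and LDHB (-0.75) and again the downstream site of LDHA, against 3.99% of all sites. No share was worked out for abundant sites alone, so these shares are not matched for abundance. Among the gene sums the share was higher in abundant rows, at 22.5 against 4.27% with STAU1 and 30.7 against 5.4% with GFP.

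LDHA was the gene with more than 1 large site, and only its downstream site was called lower. The downstream site at 18429393 had 29.1 and 24.4 CPM in the STAU1 pull-downs and 63.3 and 115.4 CPM in the inputs, a log2 ratio of -1.74 ± 0.32 (edgeR adjusted p = 0.00197). The upstream site at 18428937 had 18.4 and 39.4 CPM in the same pull-downs and 17.8 and 41.4 CPM in the inputs, a log2 ratio of -0.04 ± 0.41 (edgeR adjusted p = 0.974). Its 95% interval reached from -0.90 to 0.81. With GFP the downstream site had -1.97 ± 0.34 (edgeR adjusted p = 0.00124) and the upstream site -0.47 ± 0.43 (edgeR adjusted p = 0.647). A gene window of 500 nt, which leaves the upstream sites out, gave an LDHA sum ratio of -1.85 with STAU1 (edgeR adjusted p = 0.000393).

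As a share of the LDHA reads, the upstream site held 33.5 and 56.9% in the STAU1 pull-downs and 17.2 and 25.1% in their inputs. It held 52 and 42.7% in the GFP pull-downs and 35.6 and 18.6% in theirs. In both systems the shares in the pull-downs lay above those in their own inputs, although the 2 replicates of each group were far apart. Exact binomial 95% intervals ran from 28.6 to 38.7% for STAU1 pull-down replicate 1 and from 40.1 to 63.7% for GFP pull-down replicate 1, which had 75 LDHA reads. Those of GFP pull-down replicate 2 (32.3 to 53.6%) and GFP input replicate 1 (32.5 to 38.9%) overlapped. All these intervals cover counting error only. The smaller site at 18428883 held 0.8 to 9.6% of the reads.

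The difference between the LDHA sites was tested in one model after these values had been seen, together with the leading pair of sites of each of 3297 rows. The downstream over the upstream site had a log2 change of -1.67 ± 0.65 with STAU1 (edgeR adjusted p = 0.52) and of -1.51 ± 0.68 with GFP (edgeR adjusted p = 0.439). Both were under 0.05 unadjusted, but neither passed over all pairs. Of these, 0.121% were called with STAU1 and 0% with GFP, where edgeR gave 374 pairs at an unadjusted p under 0.05. Between STAU1 and GFP the change differed by -0.16 ± 0.94 (edgeR adjusted p = 0.988). The TPI1 sites, 83 nt apart, had 0.24 ± 0.34 with STAU1 and 0.58 ± 0.35 with GFP, neither past the threshold.

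**Figure D3:**
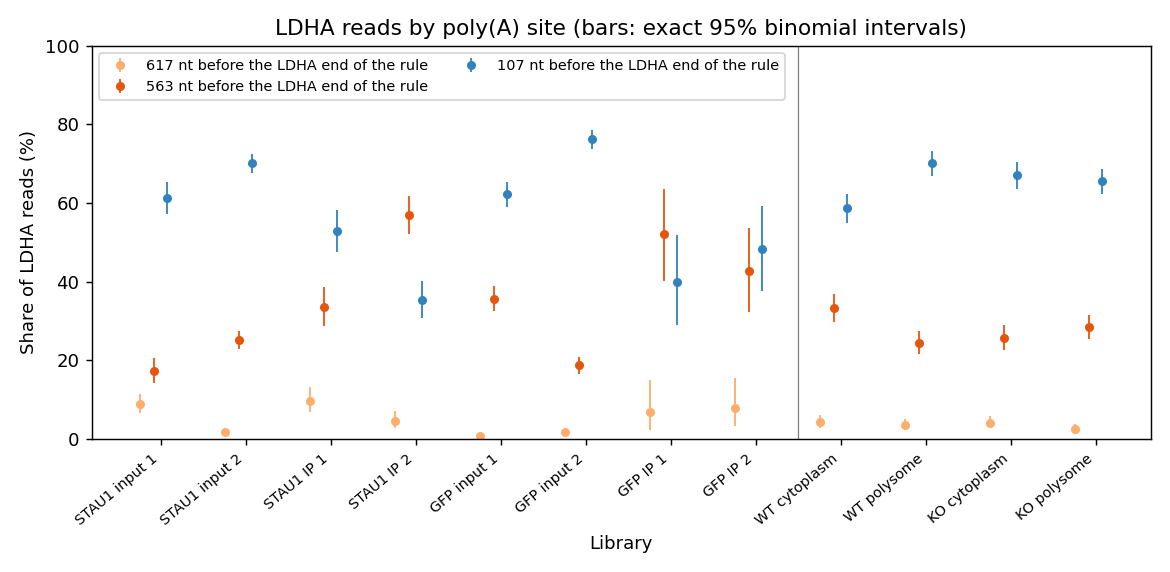
Share of LDHA reads (%) at its 3 larger poly(A) sites in each of the 12 libraries, named by their distance from the LDHA end used to find the gene; bars are exact 95% binomial intervals. The site 563 nt before that end takes 17.2 to 35.6% in the inputs and 33.5 to 56.9% in the pull-downs, and 24.4 to 33.2% in the fractions.

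Polysomal RNA was set against cytoplasmic RNA in wild-type and in knockout cells. With 1 library each there is no replicate check and no test, and the intervals given cover counting error only. In wild-type cells 5 of the 8 mRNAs had less in the polysomes than in the cytoplasm, GAPDH the least, and TPI1 had more. In knockout cells 7 of the 8 had less, ALDOA the least. The median log2 ratio of the 8 genes was -0.33 in wild type and -0.36 in knockout, against -0.02 and 0.00 over the 4732 rows with at least 50 reads in each library.

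GAPDH had 2627 CPM in the polysomes and 3793 CPM in the cytoplasm of wild-type cells, and 3029 and 4416 CPM in knockout cells. The log2 ratios of -0.53 (95% counting interval -0.57 to -0.49) and -0.54 (-0.58 to -0.51) were alike. ENO1 had 3720 and 4918 CPM in wild type and 2731 and 3724 CPM in knockout, with ratios of -0.40 and -0.45. LDHB had ratios of -0.36 and -0.43, and PKM of -0.44 and -0.21. These 4 genes stood at percentiles 13.88 to 32.04 of all rows in the 2 genotypes.

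TPI1 had 1971 CPM in the polysomes and 1516 CPM in the cytoplasm of wild-type cells, and 2091 and 2571 CPM in knockout cells. Its ratio was 0.38 (0.32 to 0.44) in wild type and -0.30 (-0.34 to -0.25) in knockout. ALDOA had 3124 and 3818 CPM in wild type and 2349 and 4185 CPM in knockout, with ratios of -0.29 (-0.33 to -0.25) and -0.83 (-0.87 to -0.79). LDHA had 270.5 and 258.7 CPM in wild type and 219.2 and 257.7 CPM in knockout, with ratios of 0.07 and -0.23. PGAM1, with 110 to 217 reads per library, had 0.12 and 0.08, both intervals including 0.

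By the bound of 1.5-fold, none of the 8 was lower in wild-type polysomes, where 14.8% of all rows were, and ALDOA alone was lower in knockout polysomes, where 12.4% were. Knockout minus wild type, the ratio of TPI1 differed by -0.68 (-0.75 to -0.60), past the bound as were 5.07% of all rows on that side, and that of ALDOA by -0.54 (-0.60 to -0.49), short of it. These stood at percentiles 2.92 and 6.4 of all rows. The other 6 genes had -0.30 (LDHA) to 0.22 (PKM). With library totals as the scale the median of all rows moved to 0.242 in wild type and 0.224 in knockout, and PKM in knockout turned from -0.21 to 0.01. In wild type the ratios then were -0.27 for GAPDH, -0.14 for ENO1, -0.17 for PKM, -0.10 for LDHB, -0.03 for ALDOA, 0.33 for LDHA and 0.64 for TPI1. In knockout they were -0.32 for GAPDH, -0.22 for ENO1, -0.21 for LDHB, -0.61 for ALDOA, -0.01 for LDHA and -0.07 for TPI1. As many of the 8 genes as before, 5 and 7, lay below the median of all rows.

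Knockout was then set against wild type within each fraction. In the cytoplasm TPI1 was higher in the knockout by 1.7-fold (log2 0.76, 0.71 to 0.82), the only gene of the 8 past 1.5-fold with TMM scaling, where 8.9% of all rows were. With library totals PKM was past it as well (log2 0.63). In the polysomes PKM was, at 1.71-fold (0.77, 0.61 to 0.94), where 6.19% of all rows were. PKM had 281.3 CPM in knockout and 192.1 CPM in wild-type cytoplasm, and 242.4 and 141.7 CPM in the polysomes, so that its level was higher in the knockout in both fractions. ENO1 was lower in both, at -0.40 and -0.45. GAPDH (0.22 and 0.21), LDHB (0.24 and 0.17) and PGAM1 (0.33 and 0.30) were above 0 in both. ALDOA was 0.13 in the cytoplasm and -0.41 in the polysomes, and LDHA -0.01 and -0.30. The TPI1 level in the polysomes differed by 0.09 (0.04 to 0.13), against the 0.76 in the cytoplasm. Mitochondrial shares also differed between the wild-type and knockout cytoplasm (18.3 and 13.9%), and their part was not tested. Genotype, cell line and library cannot be told apart here.

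**Figure D4:**
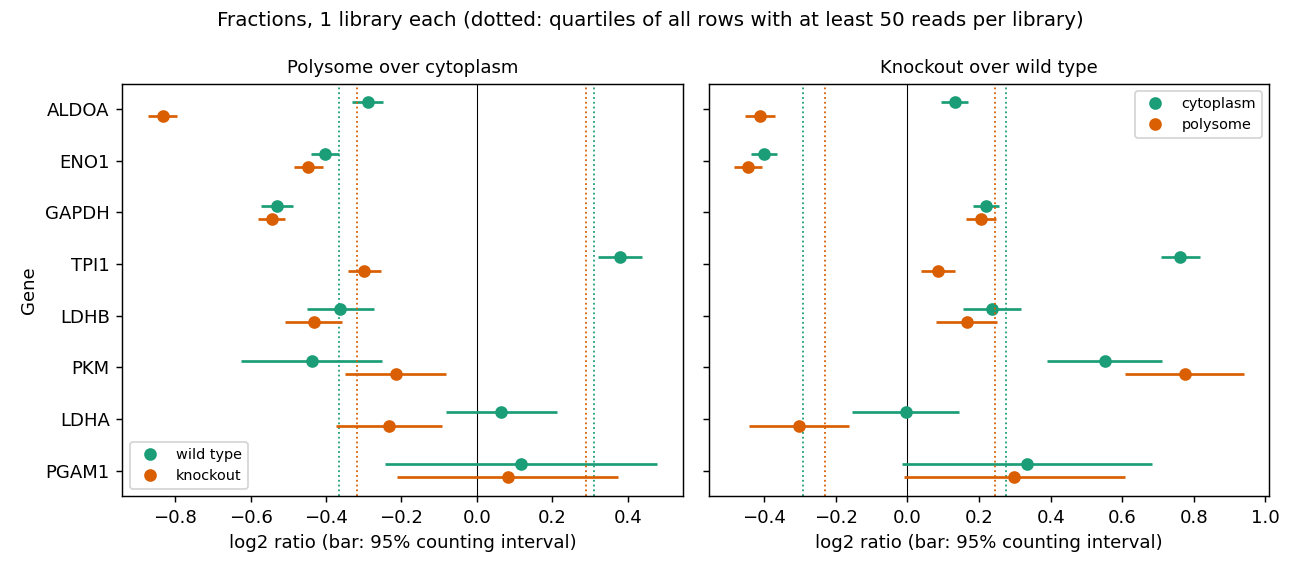
Log2 ratios of polysome over cytoplasm (left) and of knockout over wild type (right) for the 8 genes, 1 library per value, with 95% counting intervals; dotted lines are the quartiles of 4732 rows. TPI1 lies at 0.38 in wild type and -0.30 in knockout, and ALDOA at -0.29 and -0.83.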

How the data were processed

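The authors deposited 2 tables of raw counts, with a column for each library and a row for each poly(A) site. STAR and the build hg19 were used, per the submitters' processing notes, with no version of STAR given. The sources used here do not say how sites were clustered or how reads that match several places were treated.

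The sites of a gene were summed as described, and all other sites were summed over same-strand runs with gaps of at most 1000 nt. These rows (24972 after filterByExpr), and in a separate fit the single sites, went into the quasi-likelihood test of edgeR 4.0.16, run in R 4.3.3 (TMM, 4 groups over 8 libraries, 4 residual degrees of freedom), with Benjamini-Hochberg adjustment over all rows. The labels do not say whether replicates came from separate cultures, so that p-values reflect the spread among these samples alone, which may be technical. For the fractions, TMM-scaled ratios carry Poisson intervals. The script was tested on simulated data.

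The members and lists were chosen with earlier results of these data known. All 8 genes are named, and of their sites the leading one, those with at least 5% of a gene's reads in a group and those past the threshold. Other genes of the pathway were not analysed here, since no annotation of hg19 was used. Alternatives were other scaling, DESeq2 1.42.0, no filter, other windows and gaps, a replicate block and leaving out each library.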

Additional observations from a re-analysis of the deposited data

Results flagged for a closer look

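By TMM-scaled CPM, TPI1 was higher in polysomes than in cytoplasm in wild-type cells (log2 0.38, counting interval 0.32 to 0.44). It was lower in knockout cells (-0.30, -0.34 to -0.25), a difference of -0.676. Before scaling it had 8032 reads in knockout polysomes and 7850 in knockout cytoplasm. LDHA had the same signs, 0.07 (-0.08 to 0.21) and -0.23 (-0.37 to -0.09), a difference of -0.298, but its wild-type interval includes 0. With library totals as the scale the knockout ratios of both genes kept their sign but were smaller in size, as given above. Both genes are listed because the single library pairs of the genotypes moved in opposite directions. The differences were not tested, since each group has 1 library.

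ALDOA was higher in the knockout in the cytoplasm (0.13, 0.10 to 0.17) and lower in the polysomes (-0.41, -0.45 to -0.37), which makes -0.544 polysome minus cytoplasm. This is again a pair of opposite directions in single libraries, and the difference was not tested. Counting intervals say nothing of the spread between cultures.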

How the results depend on the processing

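The 5 genes called lower with STAU1 became 4 to 6 under the alternatives. With GFP the 4 became 2 under RLE, 1 under library totals and 7 without a filter on low counts, and 2 to 6 when single libraries were left out. The 2 were left without GFP pull-down replicate 1. GFP single sites called lower went from 3 to 1 with library totals, to 7 without the filter and to 2 to 6 without single libraries (6 without either STAU1 input replicate, 5 without GFP input replicate 1). In the double ratio 0 to 1 genes were called higher without single libraries (PKM, without GFP pull-down replicate 2). The genes below the median of all rows in cytoplasm, knockout over wild type, went from 2 to 1 with a window of 500 nt, which leaves out the upstream LDHA sites and moves the LDHA ratio with STAU1 to -1.85.

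Values near 0 changed sign. TPI1 with GFP was 0.122 with library totals. The LDHB double ratio was -0.022 with RLE, -0.035 with totals and -0.023 with DESeq2, and -0.021 to 0.276 without single libraries. The TPI1 double ratio was 0.075 without the filter and -0.306 to 0.11 without single libraries, that of LDHA -0.11 to 0.578 and that of ALDOA -0.595 to 0.072. PKM in knockout polysomes over cytoplasm was 0.008 with totals. A change of scale shifts every row of such a fraction ratio by the same amount, and the median of all rows went from 0.001 to 0.224. The cause of the other changes of sign was not tested.

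With a replicate block ENO1 was called lower with GFP (-0.518, adjusted p = 0.0207), making 5 genes, and no other gene's call changed. Over all rows, same-numbered libraries did not deviate together from their group means (r from -0.028 to 0.025). This takes all rows together and does not settle whether the number pairs the libraries. With the block the rows called higher and lower were 1212 and 1193 with STAU1 and 782 and 1540 with GFP. Without it they were 1005 and 1066, and 684 and 1348. Low read counts limit PGAM1 most, then LDHA and PKM in the GFP pull-downs, with 56 to 141 reads. For PGAM1 this is not a matter of depth alone. It had 24 to 67 reads in the inputs, which held 5567893 to 9655646 reads. In the shallower fraction libraries, of 2799226 to 3483937 reads, it had 110 to 217. The reason for this gap between the pull-down and fraction libraries was not tested.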
